A study of Mus musculus with 26 samples.

Results

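Mammalian oocytes grow inside a follicle and exchange signals with the granulosa cells that surround them. The genes described here are 8 genes through which the mouse oocyte takes part in that exchange or holds itself in meiotic arrest: Gdf9, Bmp15, Bmp6, Fgf8, Kit, Gja4, Gpr3 and Pde3a. They were chosen by name, as secreted factors, receptor, gap junction subunit and regulators of cAMP, out of 24450 genes in the table, and all 8 passed the filter on low counts. RNA came from fully grown oocytes at the germinal vesicle (GV) stage, each library from a pool of 10 oocytes. The 24 distinct libraries fell into 6 groups. WT (6 libraries) carried a floxed low-complexity domain of Tet3, written Tet3 LCDf/f, with no Cre. Tet3 is a dioxygenase that oxidizes methylated cytosine. LCD KO (7 libraries) carried Tet3 LCDf/f with Zp3-Cre, a recombinase driven by the promoter of an oocyte-specific gene. HD mutant (5 libraries) had the genotype Tet3 LCD HD Mutf/f with Zp3-Cre, HD not being defined in the sources used here. Dnmt3a KO (2 libraries) carried Dnmt3af/f with Zp3-Cre, Dnmt3a being the de novo DNA methyltransferase of the growing oocyte. DKO (2 libraries) carried both Dnmt3af/f and Tet3 LCDf/f with Zp3-Cre. The last 2 libraries carried the label Tet3f/f with Zp3-Cre (labelled Tet3 KO). Every group other than WT carried Zp3-Cre, so in comparisons with WT the transgene and the deletions cannot be told apart. The sources used here give no ages of the mice.

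The secreted factors belong to families known for the control of follicle growth. GDF9 and BMP15, related members of the TGF-beta family made by the oocyte, act on granulosa cells and on cumulus expansion, and BMP6 is a further oocyte ligand of the same family. FGF8 acts with BMP15 on cumulus cells. In the other direction, KIT ligand from granulosa cells binds the receptor KIT on the oocyte, and connexin 37, encoded by Gja4, forms the gap junction channels through which cyclic nucleotides and nutrients pass. GPR3 is a receptor that keeps adenylyl cyclase of the oocyte active, and the phosphodiesterase PDE3A degrades cAMP. The balance of the latter pair sets whether the oocyte stays arrested.

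The labels place 22 of the libraries in 3 batches, without saying what a batch was. The first batch consisted of 3 WT and 3 LCD KO libraries (numbers 1 to 3 of each). The second had WT 4 as its only WT library, beside LCD KO 4 and 5 and 3 HD mutant libraries (1 to 3). The third had WT 5 and 6, LCD KO 6 and 7 and every library of the remaining groups (Dnmt3a KO, DKO and labelled Tet3 KO). HD mutant 4 and 5 carry no batch label, so their values are given but they entered no test with a batch term. Libraries of batch 1 totalled 3329734 to 4309573 counts, those of batch 2 totalled 5403852 to 7833087, and those of batch 3 totalled 2558479 to 4144414. HD mutant 4 and 5 held 2242310 and 1838824 counts. The columns labelled TKO held the same values as those labelled Tet3 KO and were counted once. Tet3 was lower than WT in LCD KO, HD mutant and DKO (log2 fold changes -1.78, -1.86 and -1.73), whereas the labelled Tet3 KO libraries went against their label, with log2 fold changes of 0.60 ± 0.33 (SE) for Tet3 and -1.48 ± 0.20 for Dnmt3a (adjusted p = 4.1e-05). The Dnmt3a KO libraries had nearly the same values, 0.58 ± 0.33 for Tet3 and -1.53 ± 0.20 for Dnmt3a. In DKO the log2 fold change of Dnmt3a was -1.81 ± 0.20. HD mutant 1 stood apart from HD mutant 2 and 3, as the chi-square of their counts divided by its degrees of freedom was 38.4 and 46.8, against 5.23 between the latter. Oocyte markers were abundant in every library, at a summed 20523 to 70700 CPM over 14 genes. Of 21 granulosa or cumulus markers, 1 (Ptx3) was at 0 everywhere and the summed level was 82.1 to 140 CPM in WT and 96.3 to 423 CPM in LCD KO, where LCD KO 2 was highest. The sum over 8 theca or stroma markers was 0.34 to 2.82 CPM in WT and 2.82 to 5.67 CPM in LCD KO.

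The promoters of 5 of the 8 genes were found in the RefSeq table (build GRCm38.p6), and 4 are shown because the transcripts of Kit and Gja4 fell in LCD KO and those of Kit, Bmp15 and Gpr3 were high together in batch 2. The tabulated stretch for Bmp6 lies inside its GENCODE gene model and is not shown. Capitals mark CpG dinucleotides, the sites of the methylation that TET3 and DNMT3A act on. Each run lies on the strand of its gene and ends before the first annotated transcript start. The Kit promoter lay at chr5:75574737-75574915 on the plus strand (179 bases). The Gja4 promoter lay at chr4:127314040-127314289, the Bmp15 promoter at chrX:6320725-6320974 and the Gpr3 promoter at chr4:133212537-133212786, each with 250 bases on the minus strand.
Kit: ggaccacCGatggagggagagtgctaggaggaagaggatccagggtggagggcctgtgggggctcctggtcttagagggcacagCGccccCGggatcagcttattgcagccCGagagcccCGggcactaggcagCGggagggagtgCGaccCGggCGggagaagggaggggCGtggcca
Gja4: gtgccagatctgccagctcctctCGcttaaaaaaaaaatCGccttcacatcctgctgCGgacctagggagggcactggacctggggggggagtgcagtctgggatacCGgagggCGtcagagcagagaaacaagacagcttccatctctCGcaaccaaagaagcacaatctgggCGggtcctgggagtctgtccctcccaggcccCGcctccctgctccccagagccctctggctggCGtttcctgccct
Bmp15: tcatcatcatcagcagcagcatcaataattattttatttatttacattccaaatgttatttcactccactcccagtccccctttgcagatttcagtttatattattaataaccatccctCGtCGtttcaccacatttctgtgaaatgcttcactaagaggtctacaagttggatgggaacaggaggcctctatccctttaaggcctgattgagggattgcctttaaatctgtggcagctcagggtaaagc
Gpr3: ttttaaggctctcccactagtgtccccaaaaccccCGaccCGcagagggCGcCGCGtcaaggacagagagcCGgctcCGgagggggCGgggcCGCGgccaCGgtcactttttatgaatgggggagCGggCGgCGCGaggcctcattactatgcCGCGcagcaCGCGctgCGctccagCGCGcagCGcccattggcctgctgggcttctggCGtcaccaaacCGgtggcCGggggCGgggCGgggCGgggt
Over the 250 bases before the RefSeq start, Gpr3 held 29 CpG dinucleotides, Bmp6 22, Kit 17, Gja4 9 and Bmp15 2, against a median of 6 over 32851 promoters. Of all promoters, 6.78% held as many as Gpr3, 14.8% as many as Bmp6, 23.5% as many as Kit, 40.3% as many as Gja4 and 81.2% as many as Bmp15. The letters TAATTA and TAATTG, which the oocyte homeobox factor NOBOX is known to bind, were searched on both strands. Bmp15 held 1 TAATTA, as did 4.84% of promoters at least once, and none of the 5 held TAATTG, which 7.17% of promoters did. DNA methylation was not measured in these files.

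In WT oocytes the levels of the 8 genes differed widely. Levels are CPM (counts scaled to library size with TMM factors), and between genes they are compared per kilobase of exon (GENCODE M21 gene models, GRCm38), since the sources used here do not give the counting annotation. In batch 1 the level per kilobase was 7112 CPM for Gdf9, 1128 for Gja4, 1014 for Bmp15, 164 for Fgf8, 56.8 for Kit, 20.7 for Gpr3, 13.1 for Pde3a and 8.70 for Bmp6. In that order Gja4 overlapped Bmp15 between libraries, Gpr3 overlapped Pde3a and Pde3a overlapped Bmp6, whereas the other neighbours did not overlap. In batch 3 the order was Gdf9 (2804 CPM per kilobase), Bmp15 (617), Gja4 (255), Fgf8 (82.7), Kit (38.8), Gpr3 (16.5), Bmp6 (16.0) and Pde3a (3.85), with overlap of Gpr3 and Bmp6 alone. In the single WT library of batch 2 Bmp15 came first, at 2976 CPM per kilobase against 2061 for Gdf9, and Kit (205) stood above Fgf8 (117). Gdf9 thus led in batches 1 and 3, and Bmp15 in batch 2.

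Batches moved the 8 genes in different ways. Bmp15 was at 9108 CPM in WT 4, the only WT library of batch 2, and at 1851 and 1925 CPM in the WT libraries of batch 3, a ratio of 4.82. The ratio was 5.30 for Kit, 4.28 for Gpr3, 4.19 for Pde3a, 2.68 for Gja4 and 1.41 for Fgf8, while Bmp6 was at 57.6 CPM in WT 4 and at 56.8 and 58.3 CPM in batch 3, and Gdf9 was lower in batch 2 (0.735). All WT, LCD KO and HD mutant libraries of batch 2 except HD mutant 1 shared the high Bmp15, Kit and Gpr3. Between batches 1 and 3 the WT ratio was 4.42 for Gja4, 3.40 for Pde3a, 2.54 for Gdf9, 1.99 for Fgf8 and 0.543 for Bmp6. The corresponding ratios of Bmp15 (1.64), Kit (1.46) and Gpr3 (1.25) depended on the scaling: with total counts alone, Bmp15 was at 2317 CPM in batch 1 against 2067 in batch 3, Kit was at 223 CPM in both batches and Gpr3 at 40.7 CPM in batch 1 against 47.5 in batch 3. TMM factors were 0.734 to 0.759 in batch 1 and 1.03 to 1.20 in batches 2 and 3. Rn45s, a ribosomal RNA precursor, was at 3220 to 9405 CPM in batch 1, 10020 to 30105 in batch 2 and 615 to 1976 in batch 3, and its part in these differences was not tested. Over all 24 libraries the highest value was 17.7 times the lowest for Kit, 9.96 times for Pde3a, 9.82 times for Bmp15 and 3.57 times for Bmp6. Each comparison below was therefore adjusted for batch and is set beside the values within a batch.

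**Figure D1:**
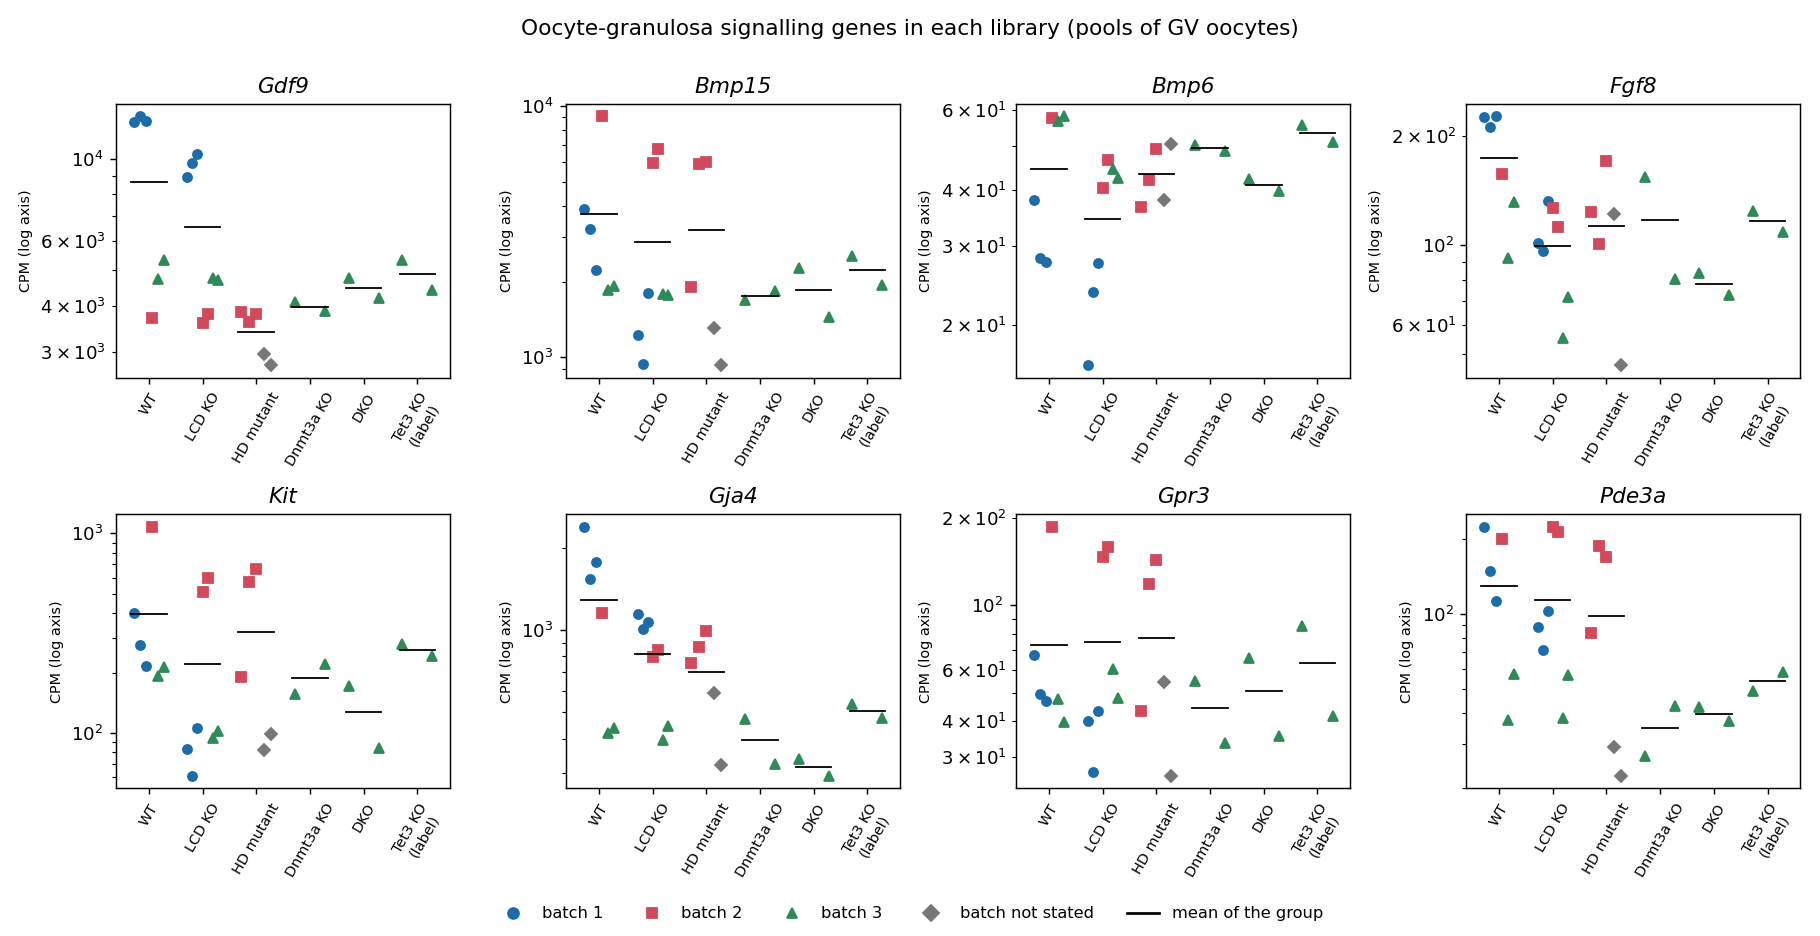
CPM of the 8 genes (log axis) in each of the 24 libraries, by group on the horizontal axis, with colour and symbol for the batch and a line at the mean of the group. Batch 2 libraries other than HD mutant 1 lie highest for Bmp15, Kit and Gpr3, where WT 4 reaches 9108, 1079 and 187 CPM, and batch 1 libraries lie highest for Gdf9.

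Without the low-complexity domain of Tet3, transcripts of the receptor, of the connexin and of 2 secreted factors were lower. Kit, Fgf8, Gja4 and Bmp6 fell in LCD KO against WT, and 0 of the 8 genes rose. A fall in fewer oocytes of a pool and a smaller fall in each oocyte cannot be told apart in pooled RNA. Of all 11794 genes tested, 9.44% were lower and 18.3% changed in either direction, against 4 of 8 and 4 of 8. The median log2 fold change was -0.47 over the 8 genes and -0.02 over all genes tested. Other transcripts of the oocyte fell too: of 14 oocyte markers 7 were lower (Zp1, Zp2, Figla, Mos, Oosp1, Padi6 and Zar1) and 0 higher, with a median of -0.43, which is close to that of the 8 genes. Summed levels of granulosa and of theca or stroma markers were higher in most LCD KO libraries, and those of blood or immune markers were not. The granulosa sum lay above every WT library of the batch in 5 of 7 LCD KO libraries, among them all 4 of batches 2 and 3, and the theca or stroma sum did so in 7 of 7. The sum over 6 blood or immune markers did so in 1 of 7. In batch 2 the theca or stroma sum was also higher in HD mutant 1, 2 and 3 (6.29, 3.85 and 3.59 CPM) than in WT 4 (1.97). In batch 3 it was higher in Dnmt3a KO (2.20 and 2.57 CPM) and DKO (1.76 and 4.34) than in WT (0.63 and 1.34). The labelled Tet3 KO libraries held 0.69 and 0 CPM. Of 9 granulosa markers tested, Hsd3b1 (0.99, adjusted p = 0.0355) was called higher and 0 lower, with a median of 0.43. Cyp19a1 (0.01) and Nr5a2 (0.02), at means of 29.9 and 23.9 CPM over all libraries, hardly differed. Dcn (2.08, adjusted p = 0.00161), the 1 theca or stroma marker tested, was called higher. It made up most of that sum, at a mean of 2.00 CPM. The part of somatic transcripts in the falls of the 8 genes was not tested. In this comparison 6 of the 8 had an unadjusted p under 0.05, as had 31.8% of all genes, and DESeq2 called 5 of the 8 and 20.9% of all genes.

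Among the secreted factors, Fgf8 had the largest fall. In WT it was at 226, 212 and 227 CPM in batch 1, at 158 in batch 2 and at 91.9 and 131 in batch 3. In LCD KO it was at 101, 96.2 and 133 CPM in batch 1, at 127 and 112 in batch 2 and at 55.2 and 71.6 in batch 3. All 7 LCD KO libraries lay below every WT library of their own batch, and the means were 49.6%, 76.0% and 56.8% of WT in batches 1, 2 and 3. On the log2 scale Fgf8 fell by 0.82 ± 0.16 (SE, adjusted p = 0.000585).

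Bmp6, the least abundant of the oocyte ligands here, was lower by a similar share in each batch. WT libraries held 37.9, 28.2 and 27.7 CPM in batch 1, 57.6 in batch 2 and 56.8 and 58.3 in batch 3. LCD KO libraries held 16.3, 23.7 and 27.6 CPM in batch 1, 40.4 and 46.7 in batch 2 and 44.4 and 42.4 in batch 3. Again all 7 lay below the WT libraries of their batch, though LCD KO 3 (27.57 CPM) and WT 3 (27.67 CPM) nearly met, and the means were 72.1%, 75.6% and 75.4% of WT. Adjusted for batch, Bmp6 had a log2 fold change of -0.43 ± 0.13 (adjusted p = 0.0213). The call ended without WT 1 (adjusted p = 0.0556) or LCD KO 1 (0.0538), with total counts in place of TMM (0.058) and with no filter on low counts (0.0565).

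Bmp15 did not pass the test, yet all 7 LCD KO libraries lay below the WT libraries of their batch. In batch 1 WT held 3872, 3222 and 2213 CPM against 1224, 943 and 1796 in LCD KO. In batch 2 the single WT library held 9108 CPM against 5921 and 6757. In batch 3 the gap was narrow, with 1851 and 1925 CPM in WT against 1791 and 1770 in LCD KO. The log2 fold change was -0.72 ± 0.26 (adjusted p = 0.0564), and it passed without WT 5 (adjusted p = 0.0475) or when only WT and LCD KO libraries entered the fit (0.0148). Gdf9, its closest relative among the 8, showed the smallest difference. It lay at 12569, 13036 and 12648 CPM in WT and at 8893, 9745 and 10278 CPM in LCD KO in batch 1, without overlap. In batches 2 and 3 it was at 3695 to 5324 CPM in WT and at 3585 to 4739 CPM in LCD KO, and the groups overlapped in each. Its log2 fold change was -0.22 ± 0.10 (adjusted p = 0.126), which DESeq2 placed under the threshold (adjusted p = 0.0409).

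Kit had the largest fall of the 8. The receptor transcript was at 401, 277 and 217 CPM in WT and at 83.3, 61.0 and 105 CPM in LCD KO in batch 1. In batch 2 it was at 1079 CPM in WT and at 509 and 596 in LCD KO, and in batch 3 at 193 and 215 CPM in WT and at 94.9 and 103 in LCD KO. Every LCD KO library lay below every WT library of its batch, and the mean was 27.9%, 51.2% and 48.5% of WT in batches 1, 2 and 3. Across batches the groups overlapped, since the batch 2 LCD KO libraries exceeded the WT libraries of batches 1 and 3. The log2 fold change adjusted for batch was -1.40 ± 0.26 (adjusted p = 0.00132). Without the batch term it was -0.84 ± 0.59 (adjusted p = 0.582).

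Gja4 fell over the 3 batches together, and its level was lower in batches 1 and 2. In batch 1 WT held 2388, 1542 and 1773 CPM of the connexin transcript and LCD KO 1141, 1013 and 1069. In batch 2 WT held 1150 CPM and LCD KO 793 and 845. In batch 3 the groups overlapped, with 421 and 438 CPM in WT and 396 and 445 in LCD KO. Over the 3 batches its log2 fold change was -0.50 ± 0.13 (adjusted p = 0.00951), and in batch 3 alone it was -0.03 ± 0.22.

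The regulators of cAMP did not pass the test. Gpr3 ranged from 39.6 to 187 CPM in WT (median 48.6) and from 26.6 to 159 CPM in LCD KO (median 47.8), and 5 of 7 LCD KO libraries lay below the WT libraries of their batch. The 2 LCD KO libraries of batch 3 (60.5 and 47.8 CPM) lay above both WT libraries there (47.7 and 39.6 CPM). Its log2 fold change was -0.23 ± 0.26 (adjusted p = 0.581). Pde3a ranged from 37.3 to 223 CPM in WT (median 130) and from 38.1 to 223 CPM in LCD KO (median 88.7), with 3 of 7 below. The 2 LCD KO libraries of batch 2 (223 and 213 CPM) lay above its WT library (199 CPM). The log2 fold change of Pde3a was -0.39 ± 0.21 (adjusted p = 0.214).

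Each of the 8 genes had its lowest log2 fold change in batch 1. With that batch fitted alone 7 of the 8 passed the test, all except Bmp6, where 30.3% of all genes passed. With batch 2, batch 3 or batches 2 and 3 together fitted alone 0 of the 8 passed by edgeR, where 0.0946%, 0.789% and 3.07% of all genes passed. Fitted alone, batch 1 gave log2 fold changes of -1.81 ± 0.24 for Kit, -1.21 ± 0.28 for Bmp15 and -0.85 ± 0.22 for Pde3a, batch 2 gave -0.94 ± 0.56, -0.49 ± 0.56 and 0.17 ± 0.42, and batch 3 gave -1.05 ± 0.28, -0.09 ± 0.23 and 0.00 ± 0.29. The difference between the effects in batches 3 and 1 was itself tested in the 10 libraries concerned. It was 1.13 ± 0.34 for Bmp15 (adjusted p = 0.22), 0.77 ± 0.24 for Gja4 (0.22) and 0.86 ± 0.32 for Gpr3 (0.267). For Kit it was 0.78 ± 0.33 (0.315), for Pde3a 0.86 ± 0.39 (0.35) and for Gdf9 0.29 ± 0.21 (0.544). In batch 3 the estimate was 0.31 for Gpr3 and 0.01 for Pde3a, so neither fell there. The fall was smaller in batch 3 for Bmp15, Gja4, Kit and Gdf9. None passed after adjustment over 9657 genes (smallest adjusted p = 0.22), of which 0.124% did. For Bmp6 (0.05 ± 0.31) and Fgf8 (0.18 ± 0.27) the difference was smaller than its error. In LCD KO 2 of batch 1 the granulosa transcripts Inha and Gja1 reached 292 and 61.4 CPM, against at most 52.8 and 7.59 CPM in WT. Without that library the same 4 genes were called in the 3 batches.

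**Figure D2:**
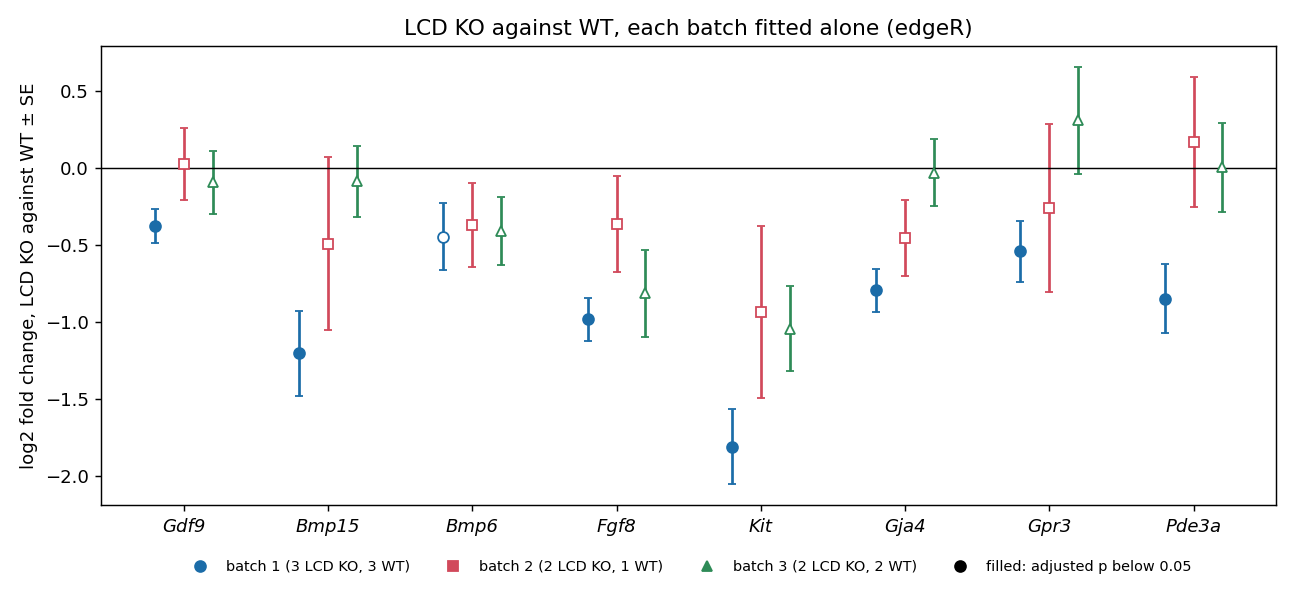
Log2 fold change of LCD KO against WT with its standard error for each of the 8 genes, with batches 1, 2 and 3 fitted alone (filled symbols: adjusted p below 0.05). Kit, Fgf8 and Bmp6 lie below 0 in all 3 batches, whereas Gja4, Bmp15 and Pde3a lie near 0 in batch 3.

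In HD mutant oocytes Kit was again the gene with the largest difference. Against WT it was the only one of the 8 to pass, with a log2 fold change of -1.49 ± 0.41 (adjusted p = 0.0333), where 7.83% of all genes changed and 3.75% were lower. An unadjusted p under 0.05 was reached by 6 of the 8 and by 24.8% of all genes, and DESeq2 called 1 of the 8 and 10.3% of all genes. Kit was at 192, 568 and 663 CPM in HD mutant 1, 2 and 3, all below the 1079 CPM of the WT library in the same batch. HD mutant 4 and 5, with no batch stated, held 82.2 and 99.3 CPM. The call rested on single libraries: the adjusted p was 0.0653 without HD mutant 1 and 0.0547 without WT 4. It was 0.0542 with total counts in place of TMM. Within batch 2 alone the log2 fold change of Kit was -1.15 ± 0.51 (adjusted p = 0.34), and with only WT and HD mutant libraries and no batch term it was 0.25 ± 0.57.

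The other genes did not pass in HD mutant. Bmp15 was at 1901, 5874 and 5999 CPM in batch 2, below the 9108 CPM of WT 4, and at 1309 and 928 CPM in the libraries without a stated batch. Its log2 fold change was -1.12 ± 0.40 (adjusted p = 0.093). For Gpr3 the values were 43.3, 118 and 143 CPM against 187 in WT 4 (-0.83 ± 0.39, adjusted p = 0.187), and for Pde3a 84.0, 187 and 169 CPM against 199 (-0.81 ± 0.33, adjusted p = 0.133). Gja4 (-0.41 ± 0.21), Bmp6 (-0.45 ± 0.20), Fgf8 (-0.55 ± 0.25) and Gdf9 (-0.13 ± 0.16) had adjusted p-values of 0.156 to 0.669. HD mutant 1 was the lowest HD mutant library of batch 2 for Bmp15, Kit, Gpr3, Pde3a, Bmp6 and Gja4. It held 0.320 of the mean of HD mutant 2 and 3 for Bmp15, 0.311 for Kit, 0.331 for Gpr3 and 0.473 for Pde3a. The ratio was 0.803 for Bmp6, 0.812 for Gja4, 0.909 for Fgf8 and 1.04 for Gdf9. Over all 11738 genes compared the median of this ratio was 1.01, and 9.70% of them held less than 1/2 of that mean.

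Set directly against LCD KO, HD mutant differed in 0 of the 8 genes by edgeR, with 0 at an unadjusted p under 0.05 and 0 by DESeq2, where 2.08% of all genes passed by edgeR and 12.3% had such an unadjusted p. The log2 differences were between -0.61 ± 0.36 (Gpr3) and 0.27 ± 0.22 (Fgf8), and that of Kit was -0.09 ± 0.37. The standard error was 0.36 to 0.37 for Kit, Bmp15 and Gpr3, and even the difference of Gpr3 did not pass (adjusted p = 0.537).

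**Figure D3:**
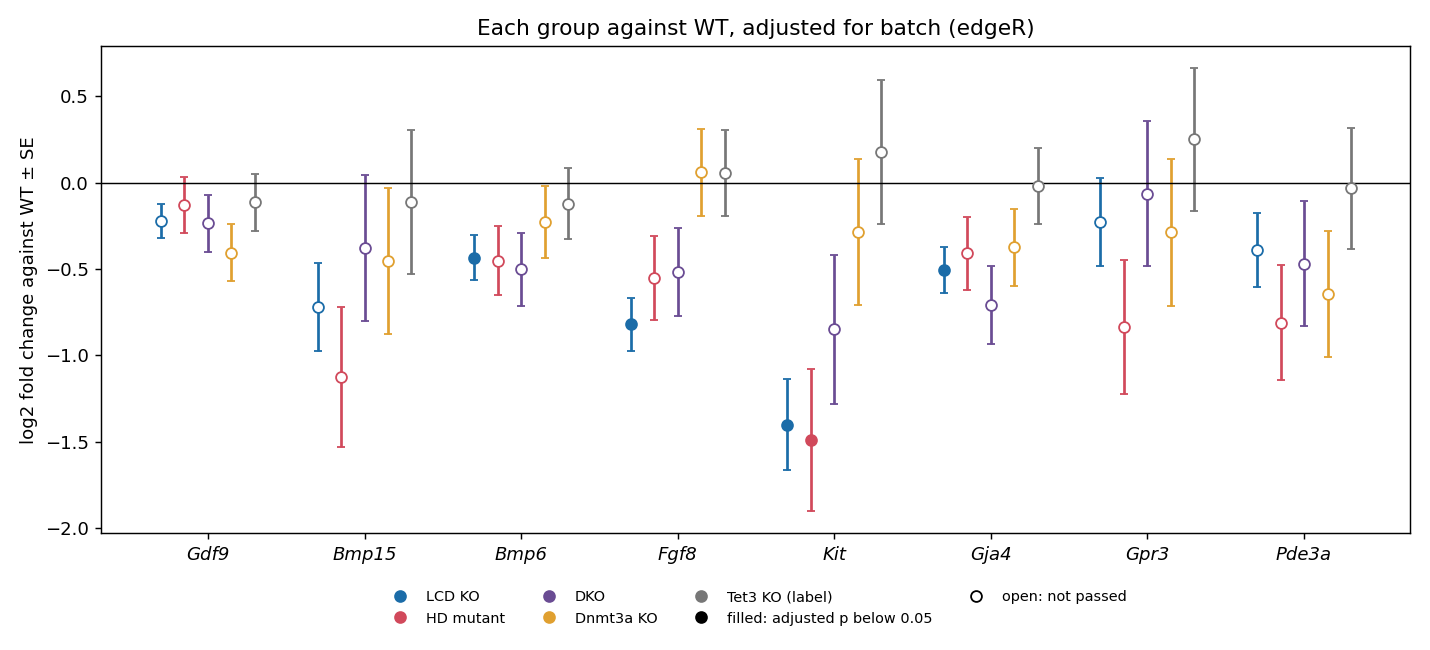
Log2 fold change against WT, adjusted for batch, with its standard error for the 8 genes in LCD KO, HD mutant, DKO, Dnmt3a KO and the libraries labelled Tet3 KO (filled symbols: adjusted p below 0.05). The WT libraries are shared by all 5 comparisons, and Kit has the lowest value in LCD KO and HD mutant, at -1.40 and -1.49.

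In Dnmt3a KO none of the 8 genes was called. By edgeR 0 of 8 passed against WT, 1 had an unadjusted p under 0.05 and DESeq2 called 0, where 0.755% of all genes passed by edgeR and 13.0% had an unadjusted p under 0.05. Gdf9 was the gene with the unadjusted p under 0.05. It was at 4091 and 3860 CPM in Dnmt3a KO and at 4731 and 5324 CPM in the WT libraries of batch 3, and its log2 fold change was -0.41 ± 0.17 (adjusted p = 0.291). Kit was at 156 and 222 CPM in Dnmt3a KO, on both sides of the WT values of 193 and 215 CPM. Fgf8 was at 154 and 80.3 CPM against 91.9 and 131 in WT, and Gja4 at 471 and 322 CPM against 421 and 438, so that the groups overlapped for each. Pde3a had the largest difference in size (-0.65 ± 0.36, adjusted p = 0.474), with 26.8 and 42.6 CPM against 37.3 and 57.5.

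In DKO, which lacks both, 0 of 8 genes passed against WT, where 3.79% of all genes did. At an unadjusted p under 0.05 there were 2, Gja4 and Bmp6, and 17.7% of all genes, and DESeq2 called 1 and 5.14% of all genes. Gja4 was at 337 and 292 CPM in DKO, below both WT libraries of batch 3 (421 and 438 CPM), with a log2 fold change of -0.71 ± 0.23 (adjusted p = 0.0798 by edgeR and 0.0379 by DESeq2). Without WT 5 the edgeR value was -0.86 (adjusted p = 0.0412). The DKO libraries all came from batch 3, whereas these fold changes also draw on batches 1 and 2. In the fit of batches 1 and 3 the effect of LCD KO on Gja4 was -0.80 in batch 1 and -0.03 in batch 3. Within batch 3 the means of Gja4 were 314 CPM in DKO and 430 CPM in WT. Bmp6 was at 42.2 and 39.7 CPM against 56.8 and 58.3 in WT (-0.50 ± 0.21, adjusted p = 0.2). Kit was at 172 and 84.4 CPM, also below both WT libraries, and its log2 fold change was -0.85 ± 0.43 (adjusted p = 0.323). Fgf8 was at 83.7 and 72.7 CPM against 91.9 and 131 in WT (-0.52 ± 0.26, adjusted p = 0.291).

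DKO against Dnmt3a KO asks what the Tet3 domain does where Dnmt3a is absent. Of the 8 genes 0 passed, 1 (Fgf8) had an unadjusted p under 0.05 and DESeq2 called 0, where 1.99% of all genes passed by edgeR and 15.3% had an unadjusted p under 0.05. The log2 fold change was -0.57 ± 0.28 for Fgf8 (adjusted p = 0.318) and -0.56 ± 0.46 for Kit (adjusted p = 0.633). DKO against LCD KO gave 0 of 8 by edgeR, 0 at an unadjusted p under 0.05 and 0 by DESeq2, where 0.314% of all genes passed by edgeR and 7.72% had such an unadjusted p. The difference between the Tet3 domain effect without and with Dnmt3a, tested as an interaction, also gave 0 of 8 by each of these counts, where 0.0678% of all genes passed by edgeR and 6.61% had such an unadjusted p. Its estimate was above 0 for all 8 genes, from 0.16 ± 0.26 for Bmp6 to 0.84 ± 0.53 for Kit and 0.80 ± 0.51 for Bmp15 (adjusted p = 0.792 and 0.795). Dnmt3a KO and DKO had 2 libraries each, all from batch 3, whereas the effect of the domain with Dnmt3a present drew on all batches. That effect, LCD KO against WT, also holds the Zp3-Cre transgene, which both Dnmt3a KO and DKO carry. The interaction therefore cannot tell the transgene apart from a dependence on Dnmt3a. Within batch 3 alone the estimate was below 0 for Gja4 (-0.29 ± 0.31) and Gpr3 (-0.08 ± 0.49) and was 0.49 ± 0.39 for Kit and 0.17 ± 0.33 for Bmp15.

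In the libraries labelled Tet3 KO none of the 8 genes was called against WT. By edgeR 0 of 8 passed, 0 had an unadjusted p under 0.05 and DESeq2 called 0, where 1.37% of all genes passed by edgeR and 9.26% had such an unadjusted p. The log2 fold changes were between -0.12 ± 0.21 (Bmp6) and 0.25 ± 0.41 (Gpr3). Kit was at 281 and 243 CPM, above both WT libraries of batch 3, with a log2 fold change of 0.18 ± 0.42. Bmp15 (2528 and 1932 CPM against 1851 and 1925) and Gja4 (537 and 476 CPM against 421 and 438) lay above these WT libraries too. Bmp6 lay below them (55.8 and 51.0 CPM against 56.8 and 58.3), and the groups overlapped for Gdf9, Fgf8, Gpr3 and Pde3a. Tet3 was not lower in these libraries, so no direction for a loss of Tet3 is drawn from them.

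The other genes of the pathways were counted from lists of ligands, receptors, inhibitors and effectors. In LCD KO the list of TGF-beta, BMP and GDF signalling had 34 other members tested of 61, of which 9 fell and 3 rose (median log2 fold change -0.19, against -0.02 over all genes). Smad5, a transducer of BMP receptors, fell from 6.13 ± 3.21 CPM in WT (SD, n = 6) to 1.73 ± 1.31 CPM in LCD KO (SD, n = 7), a log2 fold change of -1.97 ± 0.35 (adjusted p = 0.000259). The receptor genes Acvr2b (-1.66 ± 0.37, adjusted p = 0.00241) and Acvr1 (-1.46 ± 0.48, adjusted p = 0.0332) fell as well. Fstl3, which encodes a secreted antagonist of activins, rose (1.33 ± 0.35, adjusted p = 0.00828). These 4 transcripts were scarce, with means of 1.67 CPM (Fstl3) to 6.51 CPM (Acvr2b) in WT.

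Of the FGF signalling list 13 other genes were tested, 6 fell and 0 rose, with a median of -0.60. Fgf9, a ligand, fell from 14.6 ± 5.21 to 4.56 ± 1.71 CPM (-1.67 ± 0.21, adjusted p = 4.39e-06). The receptor gene Fgfr1 (-0.94 ± 0.26), the feedback inhibitor gene Spred1 (-0.84 ± 0.23) and the ligand gene Fgf7 (-0.78 ± 0.26) fell too. Of the KIT and PI3K list 29 other genes were tested, 4 fell and 0 rose, with a median of -0.16. They were Pik3r2 (-1.93 ± 0.31) and Pik3cd (-0.95 ± 0.28), which encode a regulatory and a catalytic subunit of PI3 kinase, Foxo1 (-0.94 ± 0.17), a transcription factor that AKT phosphorylates, and Fyn (-0.41 ± 0.14), a kinase of the SRC family.

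In the list of gap junctions and cell contact 15 other genes were tested, 6 fell and 0 rose, with a median of -0.27. Cdh1, which encodes E-cadherin, fell from 94.5 ± 40.8 to 54.4 ± 15.5 CPM (-0.79 ± 0.16, adjusted p = 0.00112). P-cadherin, encoded by Cdh3 (-1.04 ± 0.28), p120 catenin, encoded by Ctnnd1 (-0.78 ± 0.19), and the connexin gene Gjb2 (-1.59 ± 0.48, at 3.60 CPM in WT) fell too. Gja1, the connexin of granulosa cells, and Inha lie at 2.21 and 2.11 on this scale without passing, and both were highest in LCD KO 2. In the list for cAMP and cGMP 37 other genes were tested, 6 fell and 3 rose, with a median of -0.05. Gnai1, which encodes an inhibitory G protein subunit, fell from 18.0 ± 6.75 to 5.76 ± 2.84 CPM (-1.70 ± 0.23, adjusted p = 7.72e-06). The phosphodiesterase genes Pde3b (-0.98 ± 0.18) and Pde8a (-0.94 ± 0.26) fell, and the phosphatase gene Cdc25c rose (0.92 ± 0.19). Counts of these lists stand beside the 9.44% of all genes that fell and the 8.89% that rose.

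**Figure D4:**
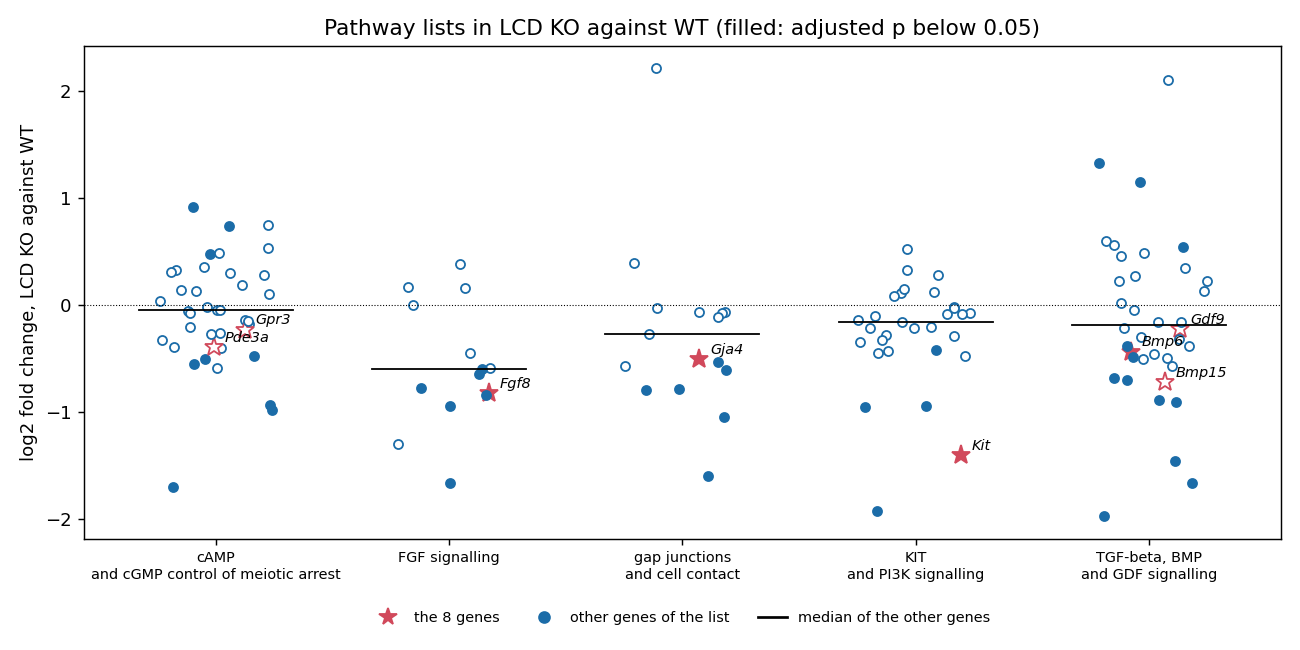
Log2 fold change of LCD KO against WT for the tested genes of the 5 pathway lists, with stars for the 8 genes, circles for the others, filled symbols for an adjusted p below 0.05 and a line at the median of the other genes. The median lies lowest in the FGF list, at -0.60, and nearest to 0 in the cAMP and cGMP list, at -0.05.

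In the other comparisons few genes of these lists passed. In HD mutant against WT 2 of the 34 genes of the TGF-beta list fell and 1 rose, 4 of 13 in the FGF list fell, 3 of 29 in the KIT list fell, 1 of 15 in the cell contact list fell and 2 rose, and 3 of 37 in the cAMP list fell, beside 3.75% of all genes that fell and 4.08% that rose. Among them Fgf9 (-1.51 ± 0.32, adjusted p = 0.00385), Acvr2b (-1.76 ± 0.50), Foxo1 (-0.95 ± 0.25) and Pde8a (-1.31 ± 0.35) fell. So did Pcsk6 (-1.33 ± 0.33), Fgf1 (-1.35 ± 0.35), Gab2 (-1.28 ± 0.37) and Adcy5 (-1.03 ± 0.26). In LCD KO against WT Fgf1, Gab2 and Adcy5 did not pass by edgeR (adjusted p = 0.0603, 0.21 and 0.107). Cdh2, which encodes N-cadherin, rose (1.87 ± 0.32, adjusted p = 0.00062), and it also rose against LCD KO (1.48 ± 0.30). In DKO against WT Cdh2 rose too (1.19 ± 0.32, adjusted p = 0.0348). Nectin2, of the same list, rose in HD mutant against WT (1.39 ± 0.32) and against LCD KO (1.46 ± 0.31). Id3, a target of BMP signalling, rose in LCD KO, HD mutant, Dnmt3a KO and DKO against the same WT libraries, at 1.15 ± 0.20 in LCD KO (adjusted p = 0.000262) and 0.93 ± 0.29 in HD mutant (adjusted p = 0.0471). In Dnmt3a KO the value was 1.32 ± 0.32 (adjusted p = 0.0464) and in DKO 2.08 ± 0.31 (adjusted p = 0.000149), from 18.8 ± 8.51 CPM in WT (SD, n = 6) to 32.9 ± 10.1 (n = 2) and 55.0 ± 9.94 CPM (n = 2). Id1 and Id2, of the same family, did not pass in LCD KO (0.60 ± 0.46 and 0.28 ± 0.24). In HD mutant they lay in the other direction without passing (-0.26 ± 0.62 and -0.71 ± 0.36). Fgf9 fell in DKO against Dnmt3a KO, from 22.3 ± 0.65 to 6.52 ± 0.69 CPM (-1.78 ± 0.36, adjusted p = 0.00826). Acvr2b fell there as well (-2.49 ± 0.65, adjusted p = 0.0407). In DKO against WT Fgf9 (-1.61 ± 0.35), Smad1 (-1.56 ± 0.45) and Gjb2 (-4.31 ± 0.87) fell. Gjb2 was scarce, at means of 0.50 CPM in DKO and 3.60 CPM in WT. Against WT, the labelled Tet3 KO libraries differed in 1 of the listed genes, the adenylyl cyclase gene Adcy8 (-2.98 ± 0.35, adjusted p = 3.16e-06).

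The genes whose pattern was nearest to each of the 8 were found over the 22 libraries with a stated batch, by the root mean square difference of log2 CPM after centring within each batch. For Kit these were Neo1 (0.23), Pik3cd (0.28) and Uhrf1bp1 (0.30), against a spread of 0.75 for Kit itself. For Bmp15 they were Padi6 (0.14), Dym (0.17) and Rbbp5 (0.18), against 0.55, and for Gpr3 Gtse1 (0.17), Nfyc (0.21) and Sec61a1 (0.21), against 0.49. Gdf9 varied little within batches (0.15), and Nudc (0.09), Pramef12 (0.09) and the zona pellucida gene Zp3 (0.10) lay nearest to it. For Gja4 they were Tcl1b1 (0.14), Dnajc11 (0.17) and Dguok (0.17), against 0.31, and for Pde3a Ywhag (0.17), Sf3a1 (0.17) and Ern1 (0.17), against 0.43. Bmp6 had Cryl1, Wwc2 and Stk24 (0.16 each, against 0.25), and Fgf8 had Tfdp1, Rnf220 and Tmem39a (0.21 to 0.22, against 0.43). When genes were centred over all libraries instead, 9 of the 24 named genes stayed among the nearest, all 3 for Bmp15 and 0 for Kit, Bmp6 and Pde3a. With that centring Bmp15 was itself the second nearest gene to Kit (0.38, against 1.08).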

How the data were processed

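Polyadenylated RNA of pooled GV oocytes was sequenced. The authors deposited raw counts of reads per gene symbol, without normalization. Per the submitters' processing notes, Trim Galore 0.5.0, HISAT2 2.1.0 and featureCounts 1.6.4 were used with the build mm9, and the sources used here give neither the annotation nor the strand setting. Of 24542 rows, 92 ERCC spike-in rows with 1 count in the 24 distinct libraries were left out.

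Groups were compared with the quasi-likelihood test of edgeR 4.0.16 (R 4.3.3, TMM factors, filterByExpr by group, robust) over 22 libraries with group and batch as terms, on 11794 genes with 14 residual degrees of freedom, and Benjamini-Hochberg adjusted p-values under 0.05 were called. Groups share WT libraries and 1 estimate of the spread. The labels call the pools biological replicates without naming the mice, so p-values measure the spread between pools. Levels are CPM with TMM factors, and log2 fold changes have standard errors. The test was run on simulated data first. Its first criterion, on the share of changed genes recovered, was missed for simulated 2-fold falls and was relaxed after that run. Alternatives were DESeq2 1.42.0, other scaling, no filter, no batch term, single batches, the groups compared alone, a replicate block and leaving out each library. The comparison of batches 1 and 3 and the fit of batches 2 and 3 were added after the data were seen. Named were the 8 genes, Tet3 and Dnmt3a, up to 4 called genes of each pathway list in LCD KO against WT and up to 2 in other comparisons (largest fold change, with the group of higher level averaging 1 CPM or more), and the 3 nearest patterns of each gene. Marker genes outside this rule, Id3 in LCD KO and HD mutant, and Adcy8, Fgf1, Gab2 and Adcy5 in LCD KO were chosen after their values were seen. The 8 genes and the lists were chosen with earlier results of these data known.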

Additional observations from a re-analysis of the deposited data

Results flagged for a closer look

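Of 24 sets of 4 to 10 libraries tested (a gene in a group), 3 held a library far from the others by Dixon's criterion. The sets pooled the batches and shared libraries, so the nominal rate of about 1 in 20 does not apply to them. All 3 were WT 4, the only WT library of batch 2. It held 9108 CPM of Bmp15, 1079 CPM of Kit and 187 CPM of Gpr3, and the next highest WT values were 3872, 401 and 67.2 CPM.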

How the results depend on the processing

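The 28 results shown in full gave 554 values under the alternatives. Of these, 478 kept their direction and their side of the threshold, 30 were weaker, 21 stronger and 25 reversed in sign, of which 2 concerned genes called in the comparison as fitted, both Kit in HD mutant against WT. The remaining 44 gave 798 values, of which 696 kept both, 6 became stronger and 96, none of them called before, reversed.

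With no batch term over 24 libraries, 357 genes and 0 of the 8 were called in LCD KO against WT, 405 and 0 in HD mutant against WT, 99 genes in HD mutant against LCD KO, 15 in Dnmt3a KO against WT, 167 in DKO against WT, 4 in DKO against Dnmt3a KO, 5 in DKO against LCD KO, 47 in the libraries labelled Tet3 KO and 2 in the interaction. Gpr3 changed sign there in LCD KO (0.0413) and HD mutant (0.0839). The batches 2 and 3 together gave 363 genes and 0 of the 8 for LCD KO, 300 and 0 for HD mutant and 236 genes for DKO against WT, with Gpr3 (0.0445) and Pde3a (0.0592) reversed in LCD KO and Gpr3 (0.0865) in DKO. Batch 1 alone called 7 of the 8 in LCD KO. Batch 2 alone called 12 genes and 0 of the 8 in LCD KO, 40 and 0 in HD mutant against WT and 102 genes against LCD KO, with Gdf9 at 0.0269 and Pde3a at 0.17 in LCD KO and Gdf9 at 0.0477 in HD mutant. Batch 3 alone called 88 genes and 0 of the 8 in LCD KO, 54 genes in Dnmt3a KO, 179 in DKO against WT and 13 in the interaction, with Gpr3 at 0.31 and Pde3a at 0.00285 in LCD KO and Gpr3 at 0.23 in DKO.

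With the groups compared alone, batch being a term only where they shared more than 1, HD mutant against WT gave 124 genes and 0 of the 8, and Bmp15 (0.31), Kit (0.25), Gpr3 (0.47) and Pde3a (0.18) reversed in this fit of 3 batches of WT against 1 of HD mutant. The other counts were 37 for HD mutant against LCD KO, 15 for Dnmt3a KO, 43 for DKO against WT, 132 against Dnmt3a KO, 2 against LCD KO and 28 for the label Tet3 KO. DESeq2 called 185 genes in Dnmt3a KO, 378 in DKO against Dnmt3a KO, 72 against LCD KO and 33 in the interaction, and 1 of the 8 in DKO against WT. With no filter on low counts, 4 of the 8 were called in HD mutant against WT and 2 in DKO against WT, and gene counts were 410 (HD mutant against LCD KO), 311 (Dnmt3a KO), 672, 449 and 122 (DKO against WT, Dnmt3a KO and LCD KO), 284 (label Tet3 KO) and 70 (interaction). Total counts alone called 0 of the 8 in HD mutant against WT and put Gpr3 in DKO at 0.00567. The causes of these shifts were not tested.

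Replicate numbers are shared between groups but do not pair the libraries. Between WT and LCD KO the deviations of same-numbered libraries correlated at -0.389 to 0.740 over genes, and at -0.32 to -0.02 once batch was removed (number 4 could not be computed). A replicate block in place of batch called 818 genes and 1 of the 8 in LCD KO, 3477 and 3 in HD mutant against WT, 3048 and 3 against LCD KO, 1437 and 4 in Dnmt3a KO, 1961 and 3 in DKO against WT, 24 genes against Dnmt3a KO, 1588 and 3 against LCD KO, 1163 and 3 for the label Tet3 KO and 2 genes in the interaction. With the block Gpr3 (0.0244) reversed in LCD KO, Bmp15 (0.87), Bmp6 (0.46), Kit (0.97), Gpr3 (1.20) and Pde3a (0.16) in HD mutant, and Bmp6 (0.47) and Gpr3 (0.22) in DKO.

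Leaving out 1 library at a time called 1685 to 2309 genes and 3 to 5 of the 8 in LCD KO, 384 to 1114 and 0 to 1 in HD mutant against WT (lowest without HD mutant 1, and 608 without WT 4), 92 to 277 against LCD KO, 26 to 116 in Dnmt3a KO, 164 to 471 and 0 to 1 in DKO against WT, 78 to 115 against Dnmt3a KO, 12 to 41 against LCD KO, 55 to 172 for the label Tet3 KO and 6 to 14 in the interaction, with 0 of the 8 in these others. Gpr3 in DKO against WT lay between -0.59 without DKO 1 and 0.31 without DKO 2.

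Groups of 2 libraries, a single WT library in batch 2 and the sparsest member counts (39 for Pde3a and 45 for Bmp6 and Gpr3 in their lowest libraries) limit what could be detected.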
